A study of Mus musculus with 16 samples.

Results

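Transcripts of 35 genes of the interferon response and of MHC class I antigen presentation were followed in RNA bound to polysomes of prelimbic projection neurons and in the total RNA around them. The genes were chosen by symbol, and all 35 were found among the 39017 gene rows of each of 3 tables, 1 for each projection. By role, 7 encode sensors and transcription factors, 17 antiviral effectors, 3 a ubiquitin-like modifier, its protease and a chemokine, and 8 parts of antigen presentation. The method, vTRAP, is a viral form of translating ribosome affinity purification. A virus named AAV-IV-GFPL10 was placed in the prelimbic cortex (PL) in mice of the C57BL/6J strain. The virus carries a ribosomal protein, L10 in its name, fused to green fluorescent protein. CAV-Cre, a canine adenovirus that axons take up, was placed in 1 of 3 targets. These were the ventral tegmental area (VTA), the basolateral amygdala (BLA) and the nucleus accumbens (NAc). Beads against GFP captured the tagged polysomes (IP), and the Input was total RNA from the PL around them. The 16 samples form 6 groups, of 2 IP and 2 Input libraries for PL-VTA and of 3 for each of the other 4. By the labels every group, Inputs included, received both viruses, and no group without virus was analysed here. The labels give neither age nor sex, and are silent on whether a replicate is 1 mouse or a pool, so that p-values measure the spread between these libraries, which may be technical.

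Type I interferons bind a receptor on the cell surface, and kinases of the JAK family then activate STAT2, which joins IRF9 in a complex that enters the nucleus. The complex binds a promoter element called the interferon-stimulated response element (ISRE) and switches on genes that block viruses, many of which encode sensors and transcription factors that feed the same loop. Interferons also raise the MHC class I pathway, in which the immunoproteasome cuts proteins into peptides, TAP carries these into the endoplasmic reticulum, and a heavy chain with beta-2 microglobulin shows them at the cell surface. In the brain these genes are best known from microglia and vessel cells, and neurons express many of them at low levels.

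The promoters of 3 genes, 300 bases each, are printed first, because they carry the element that defines the family and belong to genes that behaved differently below. They come from RefSeq on GRCm38.p6 and run from 250 bases before to 50 bases after the annotated start. Isg15 lies on the minus strand (chr4:156200769-156201068), Ifit1 on the plus strand (chr19:34640639-34640938) and Ifitm3 on the minus strand (chr7:141010695-141010994). Capitals mark each match to the core of the ISRE, which is GAAA, any 2 bases and GAAA again, or to the same core read on the other strand, TTTC, any 2 bases and TTTC. Overlapping matches run together.
Isg15: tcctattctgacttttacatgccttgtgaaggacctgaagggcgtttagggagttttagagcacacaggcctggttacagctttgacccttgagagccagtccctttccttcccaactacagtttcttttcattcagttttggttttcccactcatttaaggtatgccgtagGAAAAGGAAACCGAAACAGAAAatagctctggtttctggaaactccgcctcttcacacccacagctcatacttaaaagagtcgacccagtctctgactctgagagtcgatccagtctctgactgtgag
Ifit1: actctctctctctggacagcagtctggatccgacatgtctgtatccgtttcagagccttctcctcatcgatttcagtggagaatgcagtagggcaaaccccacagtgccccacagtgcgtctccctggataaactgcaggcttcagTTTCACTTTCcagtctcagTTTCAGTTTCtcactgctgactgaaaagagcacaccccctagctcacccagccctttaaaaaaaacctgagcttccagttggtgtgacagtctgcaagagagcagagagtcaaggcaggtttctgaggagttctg
Ifitm3: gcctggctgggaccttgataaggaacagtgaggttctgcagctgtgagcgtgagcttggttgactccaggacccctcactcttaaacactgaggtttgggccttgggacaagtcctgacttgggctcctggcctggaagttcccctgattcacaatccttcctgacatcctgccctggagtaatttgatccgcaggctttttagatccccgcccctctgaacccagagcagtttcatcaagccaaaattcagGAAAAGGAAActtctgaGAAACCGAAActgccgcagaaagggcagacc
Isg15 held 3 overlapping matches between 78 and 57 bases before the start. Ifit1 held 2 on the other strand, at 104 to 95 and at 85 to 76 bases before the start. The 2 matches of Ifitm3 lay 3 to 12 and 20 to 29 bases after the start.

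RefSeq promoters were matched for 29 of the 35 genes, and 16 of these (55.2%) held the ISRE core, against 1079 of 27025 promoters of the same length (3.99%). The share was 10 of 13 among antiviral effectors, 3 of 7 among sensors and transcription factors and 1 of 7, B2m, among antigen presentation genes. The GAS core TTCNNNGAA, which reads the same on both strands and is bound by STAT dimers, was found in 7 of 29, against 9.55% of all promoters. A match describes the letters in this window and is not evidence of binding. Many of the genes sit in families: GENCODE places 8 on chromosome 17, 7 of them in the MHC region, 5 on chromosome 7 with Ifitm1, Ifitm2 and Ifitm3, and Ifit1, Ifit2 and Ifit3 on chromosome 19. Tap1 (chromosome 17, 34187553 to 34197225, plus strand) overlaps Psmb9 (34181987 to 34187764, minus strand), and the library kit does not mark the strand, so reads in the overlap cannot be told apart. Irf1, Irf3, Irf7, Eif2ak2, Gbp2, Usp18, Cxcl10, B2m, Tap2, Tapbp and Psmb8 also overlap genes annotated on the opposite strand. Values of close relatives (Ifit, Ifitm, Gbp, Oas and H2 genes) are uncertain to the extent that reads could be shared.

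The deposited tables give each gene's mean normalized read count over the libraries, its log2 fold change of IP over Input and a standard error (SE), and a gene was called lower or higher at an adjusted p under 0.05. Read counts of single libraries were recovered from the digits of these means for 23 of the 35 genes (PL-NAc), 23 (PL-BLA) and 34 (PL-VTA), which left out the abundant ones. Libraries recovered in this way are known as IP or Input but not by replicate number, and are called a, b and c. The letters were given within each arm and do not pair an IP library with an Input library. Their size factors, a measure of relative depth, ranged from 0.789 to 1.19. Counts were normalized within each projection, so levels are compared within a projection only. The excitatory markers were higher in IP for 12 of 15 genes in PL-NAc and PL-BLA and 5 of 15 in PL-VTA, where 3 were lower. By this marker list the label of the PL-VTA pull-down has the thinnest support, and fewer libraries and larger SEs also limit the calls there. Of the 15 markers, 5 were more positive in PL-NAc than in PL-VTA and 4 more positive in PL-BLA than in PL-VTA. In both comparisons 0 went the other way, where 2.29% and 3.05% of all genes differed in either direction. Whether these markers vary between types of excitatory neuron was not tested, so the list may not serve the 3 projections equally. Microglial markers were lower in IP for 17, 16 and 15 of 17 genes in PL-NAc, PL-BLA and PL-VTA, and fixed the direction in which the tables were read.

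Of the 35 genes, 19 fell in the PL-NAc IP and none rose per the authors' deposited table, where 21.7% of 17998 genes were lower and 21.4% higher. In PL-BLA 18 of 35 fell and none rose per the authors' deposited table, against 20.2% of 17668 genes lower and 20.8% higher. In PL-VTA 6 of the 33 with an adjusted p fell and 1 rose per the authors' deposited table, against 10.5% of 15440 genes lower and 11.0% higher. Centred on the median of all genes, 7 fell and none rose in PL-VTA, against 11.8% and 8.41% of genes. The median log2 fold change of the genes was -0.74 (PL-NAc), -0.58 (PL-BLA) and -0.35 (PL-VTA), beside -0.03, -0.02 and 0.02 over all genes per the authors' deposited table. In all 3 projections 6 genes fell per the authors' deposited table, namely Ifit2, Ifit3, Ifitm1, Ifitm2, Ifitm3 and H2-K1, against 8.64% of 15425 genes with an adjusted p throughout. A further 10 fell in PL-NAc and PL-BLA but were not called in PL-VTA, and 16.8% of 17444 genes were lower in both of the first pair per the authors' deposited table. In these bulk libraries fewer cells of a type and less RNA per cell cannot be told apart.

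**Figure D1:**
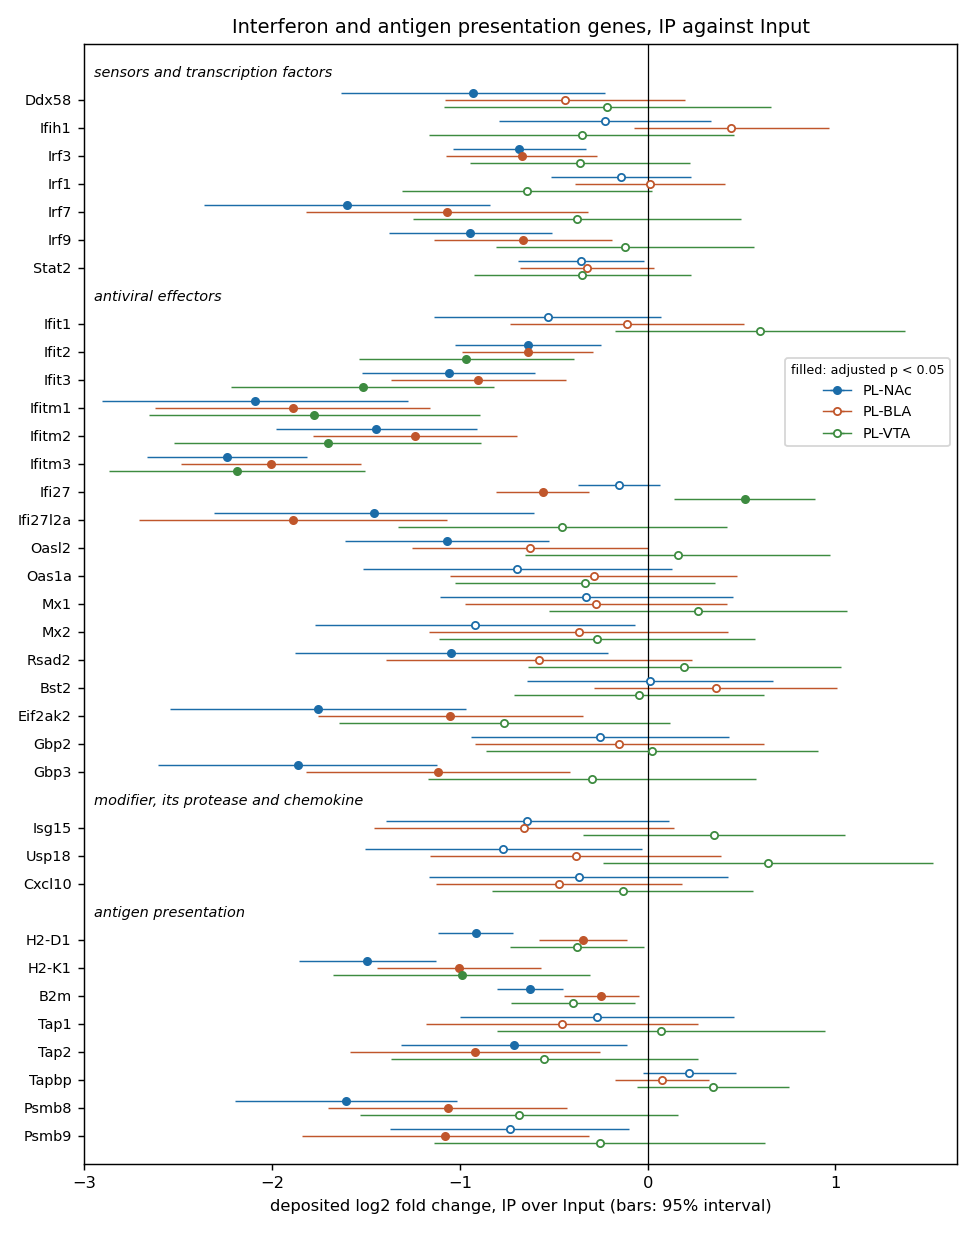
Log2 fold change of IP over Input for the 35 genes, as deposited, with 95% intervals. Rows are genes grouped by role, colours are the 3 projections, and filled points have an adjusted p under 0.05; the Ifitm genes lie far to the left in every projection, and most PL-VTA intervals include 0.

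Among the sensors, Ddx58 encodes RIG-I, which detects viral RNA in the cytoplasm. Its normalized counts in PL-NAc were 13.0, 31.1 and 17.7 in IP and 45.4, 44.4 and 50.3 in Input. Every IP library lay below every Input library, and the log2 fold change was -0.93 (SE 0.36, adjusted p 0.0242) per the authors' deposited table. In PL-BLA the IP values 38.1, 40.3 and 29.4 lay below the Input values 40.9, 68.6 and 48.3 by a smaller margin, at -0.44 (SE 0.33, adjusted p 0.296) per the authors' deposited table. Ifih1, the second cytoplasmic RNA sensor (MDA5), was not called in any projection. In PL-BLA its IP values 86.3, 89.3 and 83.5 all exceeded the Input values 64.7, 60.2 and 57.8, at 0.45 (SE 0.26, adjusted p 0.174) per the authors' deposited table. In PL-NAc its IP values 66.1, 42.5 and 49.4 overlapped the Input values 77.3, 62.3 and 49.3.

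Irf7 encodes the transcription factor that amplifies the interferon loop, and its transcript is itself induced by interferon. In PL-NAc its counts were 8.01, 13.5 and 5.07 in IP and 34.4, 47.8 and 42.1 in Input. In PL-BLA they were 13.6, 7.62 and 15.3 in IP and 32.4, 35.2 and 37.8 in Input. The groups did not overlap in either, and the log2 fold changes were -1.60 (SE 0.39) and -1.07 (SE 0.38) per the authors' deposited table. Irf9, the DNA-binding partner of the STATs, fell by 0.94 (SE 0.22) and 0.66 (SE 0.24) in PL-NAc and PL-BLA per the authors' deposited table. Irf3, which is present before infection and is switched on by phosphorylation, fell by 0.68 (SE 0.18) and 0.67 (SE 0.21) per the authors' deposited table. Stat2 and Irf1 were not called, with Stat2 between -0.36 and -0.32 in the 3 projections and Irf1 at -0.14, 0.01 and -0.64 per the authors' deposited table. None of these 7 genes was called in PL-VTA.

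The antiviral effectors held the largest falls. IFITM proteins sit in membranes and block the fusion of viruses with them. Ifitm1 had counts of 3.0, 3.1 and 3.8 in the PL-NAc IP and 31.9, 26.5 and 44.2 in the Input. In PL-BLA they were 9.99, 4.36 and 9.41 against 52.0, 56.5 and 41.0, and in PL-VTA 2.03 and 1.12 against 53.4 and 34.8. Not one IP library came near an Input library, although the IP values rest on 1 to 11 reads. The log2 fold changes of Ifitm1 were -2.09 (SE 0.42), -1.89 (SE 0.37) and -1.78 (SE 0.45) in PL-NAc, PL-BLA and PL-VTA per the authors' deposited table. The log2 ratios of the recovered means were -3.37, -2.65 and -4.81, farther from 0 than the deposited values, which appear shrunken.

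Ifitm3, the best studied of the family, fell by 2.24 (SE 0.22), 2.0 (SE 0.24) and 2.19 (SE 0.35) per the authors' deposited table. On that scale, which appears shrunken, the values equal 21.2%, 24.9% and 21.9% of Input. The recovered counts of Ifitm3 in PL-VTA were 33.5 and 33.6 in IP and 206.8 and 227.4 in Input, so the 2 IP libraries were alike and far below. The log2 ratio of these recovered means was -2.69, farther from 0 than the deposited value. Ifitm2 had 32.0, 33.2 and 40.5 in the PL-NAc IP against 95.8, 117.0 and 111.9 in the Input. It had 41.8, 31.6 and 43.5 against 107.3, 95.4 and 109.3 in PL-BLA, and 13.2 and 24.6 against 115.6 and 97.3 in PL-VTA. Ifitm2 fell by 1.45 (SE 0.27), 1.24 (SE 0.28) and 1.70 (SE 0.42) per the authors' deposited table.

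The IFIT proteins bind viral RNA and stop its translation. Ifit3 fell by 1.06 (SE 0.23), 0.90 (SE 0.24) and 1.52 (SE 0.36) in PL-NAc, PL-BLA and PL-VTA per the authors' deposited table, and Ifit2 by 0.64 (SE 0.20), 0.64 (SE 0.18) and 0.97 (SE 0.29) per the authors' deposited table. In PL-VTA the counts of Ifit3 were 30.5 and 65.0 in IP and 138.4 and 211.6 in Input, and those of Ifit2 111.8 and 146.7 in IP and 251.4 and 299.9 in Input. Ifit1, their neighbour on chromosome 19, was not called in any projection. Its counts were 34.0, 45.6 and 36.7 in IP and 65.5, 52.1 and 61.6 in Input in PL-NAc, which do not overlap, at -0.53 (SE 0.31, adjusted p 0.16) per the authors' deposited table. In PL-BLA they were 43.6, 40.3 and 38.8 against 45.1, 46.3 and 43.1, nearly level.

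Eif2ak2 encodes PKR, a kinase that halts translation on sensing double-stranded RNA. Its counts were 4.0, 5.2 and 8.9 in IP and 25.2, 36.7 and 45.2 in Input in PL-NAc. In PL-BLA they were 21.8, 18.5 and 9.41 against 52.0, 35.2 and 44.1. It fell by 1.76 (SE 0.40) and 1.05 (SE 0.36) per the authors' deposited table. Gbp3, a guanylate-binding protein of the interferon-induced GTPases, showed 6.0, 13.5 and 6.3 in IP against 38.6, 54.6 and 55.4 in Input in PL-NAc, and 15.4, 17.4 and 15.3 against 50.2, 48.2 and 35.7 in PL-BLA. It fell by 1.86 (SE 0.38) and 1.12 (SE 0.36) per the authors' deposited table, while its relative Gbp2 was at -0.25 (SE 0.35) and -0.15 (SE 0.39) and not called. In Gbp2 1 IP library stood high in each, at 52.8 beside 21.0 and 19.0 in PL-NAc and at 34.9 beside 14.5 and 10.6 in PL-BLA.

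Ifi27l2a, an interferon-induced membrane protein gene, had 8.01, 0 and 3.80 in IP and 18.5, 34.1 and 26.7 in Input in PL-NAc, and 1.82, 2.18 and 0 against 17.9, 15.8 and 39.9 in PL-BLA. It fell by 1.46 (SE 0.44) and 1.89 (SE 0.42) per the authors' deposited table. Oasl2, of the oligoadenylate synthetase family, had 26.0, 47.7 and 46.9 in IP and 70.6, 102.4 and 103.7 in Input in PL-NAc and fell by 1.07 (SE 0.28) per the authors' deposited table. Rsad2 encodes viperin, which makes a chain-terminating nucleotide. With 0 to 2 reads in each PL-NAc IP library against 8 to 14 in each Input library, it fell by 1.05 (SE 0.43) per the authors' deposited table. Oas1a, Mx1 and Mx2 had means under 13 in every projection and were not called per the authors' deposited table. Bst2 encodes tetherin, which holds budding viruses at the cell surface. It was level in PL-NAc, with 47.0, 26.9 and 41.8 in IP and 34.4, 35 and 45.2 in Input, and was not called in PL-BLA at 46.3, 41.4 and 50.6 against 45.1, 28.7 and 27.3.

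Ifi27, a gene of the same family as Ifi27l2a and its neighbour on chromosome 12, was the one gene of the set called in opposite directions. It fell by 0.56 (SE 0.13, adjusted p 5.94e-05) in PL-BLA and was 0.52 (SE 0.19, adjusted p 0.0366) higher in PL-VTA per the authors' deposited table, while PL-NAc stood at -0.15 (SE 0.11, adjusted p 0.289). Its PL-VTA counts were 1033 and 824.4 in IP and 647.5 and 623.7 in Input, so both IP libraries lay above both Inputs. The PL-VTA call was lost when fold changes were centred on the median of all genes, at 0.45 with an adjusted p of 0.0806 by the recomputed Wald test, and the fall in PL-BLA was kept.

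Isg15 encodes a ubiquitin-like modifier, Usp18 the protease that removes it and damps receptor signalling, and Cxcl10 a chemokine that draws T cells. None of them was called in any projection. Isg15 had 16, 16.6 and 15.2 in IP and 31.1, 27.3 and 28.8 in Input in PL-NAc, with no overlap, at -0.64 (SE 0.38, adjusted p 0.176) per the authors' deposited table. In PL-BLA it had 13.6, 11.98 and 4.7 against 14.5, 15.8 and 34.7. Usp18 had 20.02, 18.7 and 12.7 in IP and 26.9, 41.8 and 35.9 in Input in PL-NAc, at -0.77 (SE 0.38, adjusted p 0.0873) per the authors' deposited table. Cxcl10 had 0 reads in 2 of 3 IP libraries in both PL-NAc and PL-BLA and is too low to compare.

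In antigen presentation the class I heavy chains and their light chain were lower. H2-K1 fell by 1.49 (SE 0.19), 1.01 (SE 0.22) and 0.99 (SE 0.35) in PL-NAc, PL-BLA and PL-VTA per the authors' deposited table. In PL-VTA the counts of H2-K1 were 40.6 and 189.3 in IP and 208.5 and 289.0 in Input, so both IP libraries lay below both Inputs but far apart. By limma on the recovered counts its log2 change was -1.47 (adjusted p 0.118). It was -0.37 without IP library a and -2.57 without IP library b, each from 1 IP library, so only the size of the change is given. H2-D1 fell by 0.91 (SE 0.10) in PL-NAc and 0.34 (SE 0.12) in PL-BLA and was at -0.38 (SE 0.18, adjusted p 0.137) in PL-VTA per the authors' deposited table. B2m, which encodes beta-2 microglobulin, fell by 0.63 (SE 0.09) and 0.25 (SE 0.10) in PL-NAc and PL-BLA and was at -0.40 (SE 0.17, adjusted p 0.0752) in PL-VTA per the authors' deposited table. The PL-VTA counts of H2-D1 were 685.8 and 802.0 in IP and 884.9 and 1072 in Input.

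Psmb8 and Psmb9 encode catalytic subunits that replace those of the constitutive proteasome in the immunoproteasome. Psmb8 had 26.0, 25.9 and 22.8 in IP and 69.7, 94.8 and 109.9 in Input in PL-NAc, and 30.9, 38.1 and 15.3 against 77.5, 68.6 and 62.0 in PL-BLA. It fell by 1.61 (SE 0.30) and 1.06 (SE 0.32) per the authors' deposited table. Psmb9 had 8.17, 15.2 and 8.23 in IP and 21.3, 37.1 and 36.8 in Input in PL-BLA, where it fell by 1.08 (SE 0.39) per the authors' deposited table. In PL-NAc it was 25, 26.9 and 34.2 against 39.5, 55.5 and 63.7, at -0.74 (SE 0.33, adjusted p 0.0545) per the authors' deposited table. The constitutive subunits moved the other way, with Psmb6 at 0.61 (SE 0.07), 0.42 (SE 0.07) and 0.38 (SE 0.14), Psmb7 at 0.62 (SE 0.07), 0.58 (SE 0.08) and 0.46 (SE 0.15), and Psmb5 at 0.34 (SE 0.09), 0.31 (SE 0.09) and, not called, 0.38 (SE 0.16) per the authors' deposited table. These calls hold on the authors' scaling: with fold changes centred on the excitatory neuron markers, none of the constitutive subunits was called higher in PL-NAc or PL-BLA.

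Tap1 and Tap2 encode the subunits of the peptide transporter. Tap2 had 33.0, 32.1 and 38.0 in IP and 62.2, 55.5 and 65.7 in Input in PL-NAc and 32.7, 22.9 and 18.8 against 48.5, 69.5 and 49.4 in PL-BLA. It fell by 0.71 (SE 0.31, adjusted p 0.0477) and 0.92 (SE 0.34, adjusted p 0.0187) per the authors' deposited table. Tap1 was not called, at -0.27 (SE 0.37) and -0.46 (SE 0.37) per the authors' deposited table, and its PL-NAc IP libraries spread over 12, 43.5 and 17.7. In PL-BLA the IP values of Tap1, 22.7, 27.2 and 12.9, all lay below the Input values 30.7, 31.5 and 34.7. The difference between Tap1 and Tap2 was not tested, and the PL-NAc call of Tap2 was lost when p was adjusted over every gene with a p-value (adjusted p 0.0615 on the deposited Wald p). Tapbp encodes tapasin, which bridges TAP and the heavy chain, and was not called in any projection, at 0.22 (SE 0.13), 0.08 (SE 0.13) and 0.35 (SE 0.21) per the authors' deposited table.

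Library by library, 16 of the 20 resolved genes with a mean of at least 5 had every IP value below every Input value in PL-NAc, against 42.2% of 5480 genes, and 0 lay above, against 12.9%. The counts were 13 below and 1 above of 20 in PL-BLA, against 39.5% and 12% of 5226 genes. In PL-VTA they were 16 below and 1 above of 34, against 39.9% and 26.2% of 12504 genes. The share of the set below Input was thus highest in PL-NAc and nearest to that of all genes in PL-VTA. The projections cannot be ranked by it, because PL-VTA had 2 libraries in each arm and its resolved genes had means up to 1000, not 100.

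**Figure D2:**
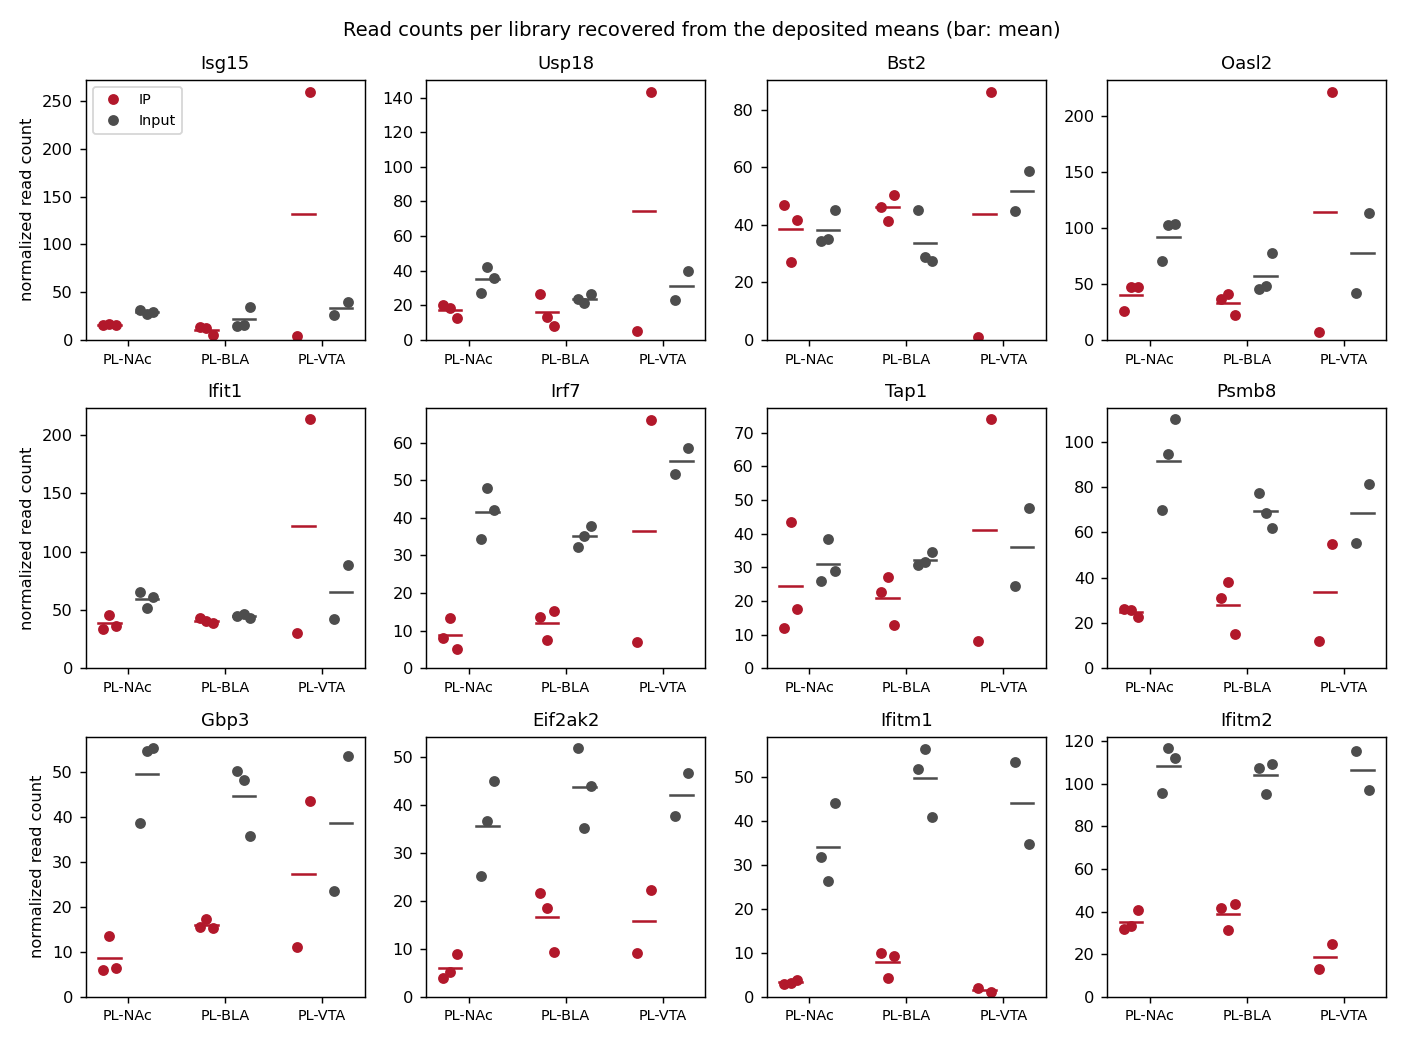
Normalized read counts per library, recovered from the deposited means, for 12 genes in the 3 projections. Points are libraries, bars are means, and each panel has its own axis from 0; in PL-NAc and PL-BLA no gene plotted has IP points 4-fold apart, while in PL-VTA Isg15, Usp18, Bst2 and Oasl2 have 1 IP library near 0 and the other above both Inputs.

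The 2 PL-VTA IP libraries differed from each other on these genes. Isg15 had 4 reads in IP library a and 232 in IP library b, or 4.06 and 259.9 after normalization, beside 26.3 and 39.7 in the Inputs. Library b was 63.9 times library a (95% exact interval 24.6 to 237, counting error only). Usp18 had 5.08 and 143.4 in IP beside 22.8 and 39.7 in Input, and Oasl2 7.11 and 221.8 beside 42.1 and 113.2. Bst2 had 1.02 and 86.2 in IP, the first from 1 read, beside 44.7 and 58.6. For these genes 1 IP library lay below both Inputs and the other above both.

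The same held for Ifit1 at 30.5 and 213.9 in IP beside 42.1 and 88.4 in Input, for Irf7 at 7.11 and 66.1 beside 51.7 and 58.6, and for Irf9 at 63.0 and 230.7 beside 131.4 and 176.8. Tap1 had 8.13 and 73.9 beside 24.5 and 47.7, and Psmb9 5.08 and 37.0 beside 29.8 and 29.8. Rsad2 had 1.02 and 31.4 beside 6.13 and 14.9. In all, 13 of the 34 resolved genes had library a below both Inputs and library b above both, against 7.09% of 12504 resolved genes with a mean of at least 5, the others being Ddx58, Mx1 and Gbp2. H2-K1, at 40.6 and 189.3, and Psmb8, at 12.2 and 54.9, were also at least 4-fold apart but stayed under both Inputs in library b.

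Among 10029 resolved genes with a mean of at least 20, library b was at least 4-fold above library a in 89 (0.887%) and the libraries were at least 4-fold apart in either direction in 99 (0.987%), on normalized counts + 1. Of the 28 genes of the set in that range 10 were, all higher in library b, and 24 of 28 were higher in b at all, against 51.0% of all resolved genes. Ranked by this ratio over the 10029 genes, Isg15 was number 4, Bst2 number 5, Oasl2 number 6 and Usp18 number 7. The 3 genes above them were Ifi44 and Phf11d, which are interferon-induced, and Igha, an immunoglobulin heavy chain constant gene. Ifi44 had 1.02 and 163.5 and Igha 1.02 and 141.1 in IP. Phf11d had 0 and 65 reads in IP, so that library b was at least 23.9-fold higher against a floor of 3 reads in library a. These 3 were looked up after the ranking was seen.

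The split did not reach every gene of the set. Ifitm3, Irf3 and Irf1 had a ratio of library b to library a of 1.0, 0.952 and 0.873, and H2-D1, Ifit2 and Stat2 of 1.17, 1.31 and 1.35. The ratio of Ifitm1, 0.551, rests on 2 reads in a and 1 in b (95% exact interval 0.00934 to 10.6). It cannot show whether the split reached Ifitm1. In the Inputs of PL-VTA 0 of 28 genes were at least 4-fold apart (0.0199% of all genes), but most leaned to 1 library. Input library b was above a in 21 of 28, with a median of 1.25-fold, against 50.6% of all resolved genes. Whether Input b belongs with IP library b is not known. Oasl2 was 2.69-fold, Gbp3 2.27-fold and Ifit1 2.1-fold higher in Input b. In the IP libraries of PL-NAc and PL-BLA 0 of 16 and 0 of 15 genes in the range were at least 4-fold apart, against 1.43% and 1.72% of genes, and 0 of their Inputs, against 0.0665% and 0.182%. In PL-VTA 9 of the 10 genes had a RefSeq promoter and 3 of these held the ISRE core, against 9 of 16 among the genes less than 4-fold apart.

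**Figure D3:**
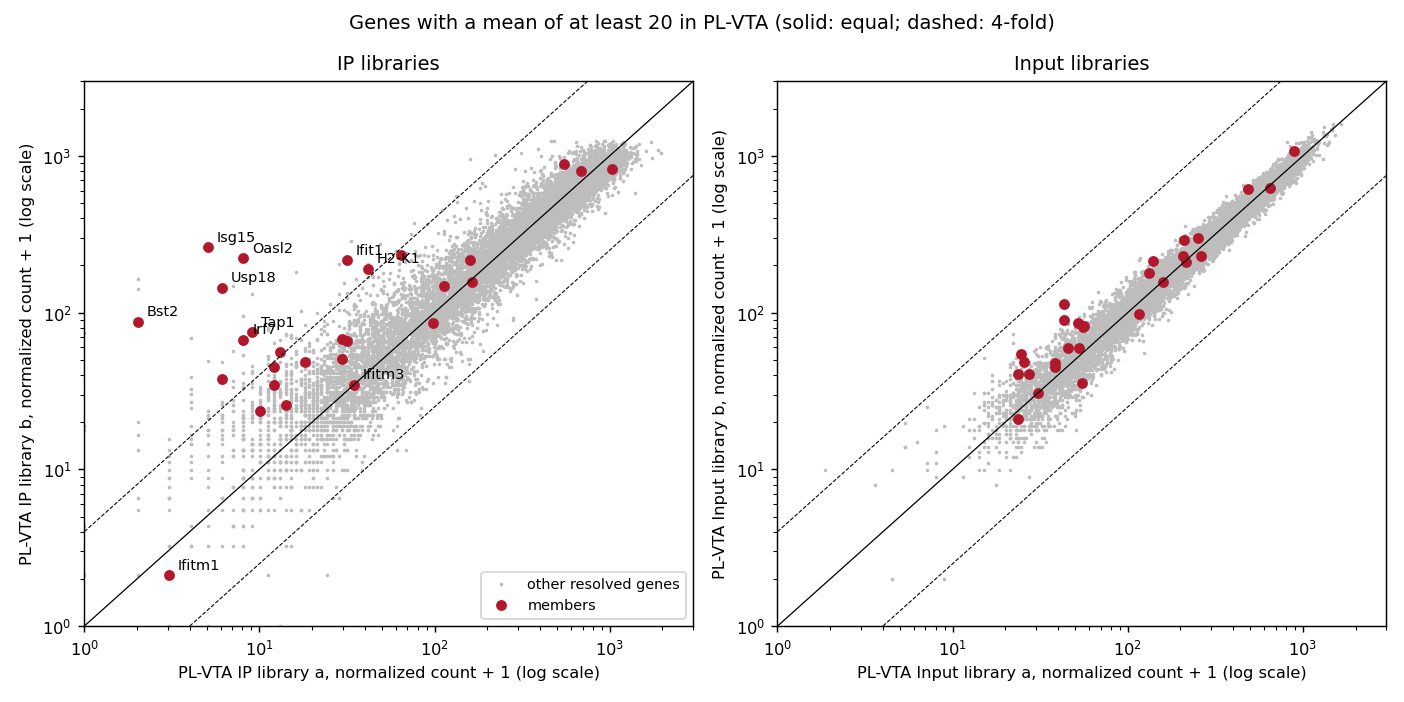
Normalized counts + 1 of the 2 PL-VTA IP libraries (left) and the 2 PL-VTA Input libraries (right), on log scales, for 10029 resolved genes with a mean of at least 20. Red points are the genes of the set, the solid line marks equal counts and the dashed lines a 4-fold difference; 10 red points lie beyond the upper dashed line in the IP panel and 0 in the Input panel.

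The deposited PL-VTA values average over this split. With limma on log2 of the recovered normalized counts + 1, 7 of 34 genes were called in PL-VTA (6 lower, 1 higher) beside 16.3% of 12504 genes lower and 6.21% higher. Without IP library a, limma called 6 lower and 10 higher and the median log2 change was 0.12, and without IP library b it called 26 lower and 1 higher with a median of -1.57. Of all genes, 23.8% were lower and 11.7% higher without library a, and 31.0% and 16.1% without library b. The single IP library left was assumed to vary like the 2 Inputs. Without Input a it called 1 gene of the set (2.68% of all genes lower, 0.592% higher) and without Input b 2 (1.9% and 0.496%). In PL-NAc limma called 16 of 20 resolved genes, all lower (37.9% of 5480 genes), with 9.03% of genes higher. In PL-BLA it called 10 lower and 1 higher of 20, where 33.0% of 5226 genes were lower and 6.81% higher. The gene called higher in PL-BLA was Ifih1.

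Marker genes of other cells were compared between the same libraries. As a percentage of the mean of both Inputs, the summed microglial markers (17 of 17 genes resolved) were 22.8% in IP library a and 34.9% in b, those of other immune cells (6 of 14 resolved) 22.7% and 42.2%, astrocyte markers (7 of 16) 31.3% and 44.1%, mural markers (10 of 10) 40.3% and 49.9% and inhibitory neuron markers (11 of 17) 25.7% and 36.1%. Oligodendrocyte markers (7 of 16) were 18.6% and 22.8%, endothelial markers (15 of 15) 78.8% and 77.5%, and excitatory neuron markers (5 of 15) 129% and 127%. Egfl7 held much of the endothelial sum, and the other 14 endothelial markers were at 39.6% and 53.1%. The Isg15, Usp18 and Cxcl10 sum was 14.4% and 581%, the antiviral effector sum 72.4% and 99.2%, the sensor and transcription factor sum 57.6% and 93.2%, and the antigen presentation sum (7 of 8) 67.1% and 106%. Ifi27 held much of the effector sum, and the other 16 effectors were at 23.8% and 82.8%; both single genes were left out after their values were seen. The part of the other cells in the split was not tested. In library b 15 of the 34 genes exceeded both Inputs, against 36.8% of all resolved genes.

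**Figure D4:**
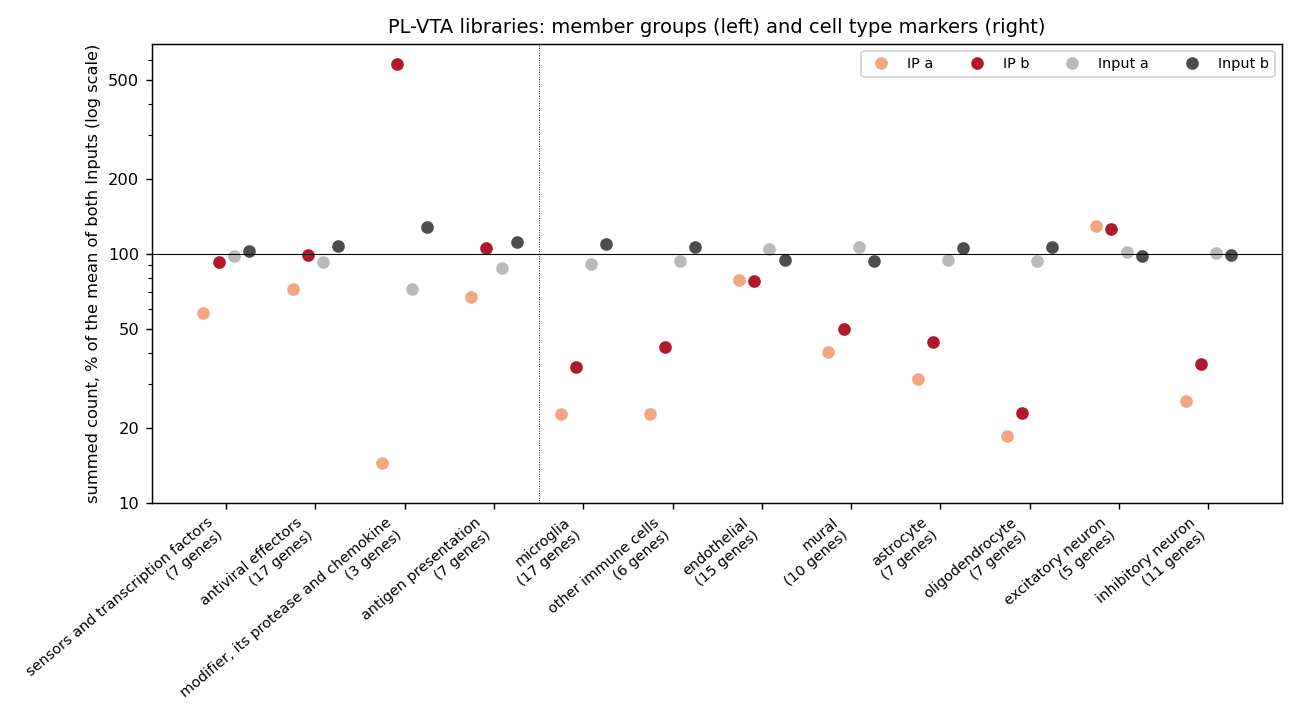
Summed normalized counts of each gene group in the 4 PL-VTA libraries, as a percentage of the mean of both Inputs, on a log scale. The 4 groups of interferon and antigen presentation genes are on the left and cell type markers on the right, with the number of resolved genes; the modifier group spans 14.4% to 581% between the IP libraries, and no marker group exceeds 100% in IP apart from the excitatory neurons.

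Markers of non-neuronal cells were lower in IP in the same tables as the interferon genes. Of 15 endothelial markers 15, 15 and 12 had an adjusted p in PL-NAc, PL-BLA and PL-VTA per the authors' deposited table. Of these 7, 7 and 3 were lower and 1 in each was higher, where 21.7%, 20.2% and 10.5% of all genes were lower. The most abundant endothelial markers were Egfl7, higher at 0.71 (SE 0.14), 0.59 (SE 0.13) and 0.64 (SE 0.22), and Itm2a, at -0.67 (SE 0.20), -0.29 (SE 0.17) and -0.60 (SE 0.28) per the authors' deposited table. Among microglial markers Csf1r was at -1.33 (SE 0.15), -0.43 (SE 0.13) and -0.84 (SE 0.26) per the authors' deposited table. Mural markers were lower for 8, 7 and 3 of the 10, 10 and 9 with an adjusted p, and 1 was higher in PL-BLA, per the authors' deposited table. Astrocyte markers were lower for 16, 15 and 16 of 16 and oligodendrocyte markers for 16, 15 and 15 of 16 per the authors' deposited table. Inhibitory neuron markers were also lower, for 16, 16 and 12 of 17, and 1 was higher in PL-NAc, per the authors' deposited table. Of 14 other immune markers only 7, 7 and 6 had an adjusted p, and 3, 4 and 1 of these were lower per the authors' deposited table. Their most abundant gene, Cd4, was at -1.60 (SE 0.24), -1.73 (SE 0.18) and 0.39 (SE 0.45) per the authors' deposited table. The part of these cells in the falls of the interferon genes was not tested.

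Differences between projections were tested on the deposited fold changes with a two-sided Wald z and Benjamini-Hochberg adjustment over all genes. Between PL-NAc and PL-BLA, 1 of the 35 genes differed, where 1.14% of 21981 genes did. That gene was H2-D1, with a difference of -0.57 for PL-NAc minus PL-BLA (SE 0.16, adjusted p 0.0272). The call was lost at an adjusted p under 0.01, and with fold changes centred on the excitatory neuron markers, where the difference was -0.54 (adjusted p 0.0525 by the Wald test) and 1.16% of genes differed. B2m differed the same way by -0.38 (95% interval -0.64 to -0.11) with an adjusted p of 0.234 by the Wald test. In the same comparison 3 of 17 microglial, 10 of 16 astrocyte and 7 of 16 oligodendrocyte markers were lower in PL-NAc and none higher, and their part in the H2-D1 difference was not tested.

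Between PL-BLA and PL-VTA, 1 of 35 genes differed, where 3.05% of 21613 genes did. That gene was Ifi27, with a difference of -1.08 for PL-BLA minus PL-VTA (95% interval -1.53 to -0.62, adjusted p 0.000281 by the Wald test). Between PL-NAc and PL-VTA none of the 35 passed, where 2.29% of 21559 genes did. With the neuron-marker centring 11 of the 35 differed between PL-NAc and PL-VTA, where 18.2% of genes did, and 4 between PL-BLA and PL-VTA, where 20.8% did, so these counts turn on the scaling. Between PL-NAc and PL-VTA on the authors' scaling, 9 of the 35 had an unadjusted p under 0.05 by the Wald test. All 9 were more negative in PL-NAc. The share of all genes at that cutoff was not computed, so the 9 cannot be set against a background. Of them 6 (Irf7, Irf9, Ifit1, Oasl2, Rsad2 and Usp18) are among the 13 whose PL-VTA IP libraries lay on either side of both Inputs. The median difference over the 35 was -0.48 for PL-NAc minus PL-VTA, -0.24 for PL-NAc minus PL-BLA and -0.29 for PL-BLA minus PL-VTA, beside -0.04, -0.01 and -0.03 over all genes. PL-VTA had fewer libraries and larger SEs, so differences that involve it are less well resolved. The deposited fold changes also appear shrunken, and the degree may differ between projections. For example, Ifitm1 was at -2.09 in PL-NAc and -1.78 in PL-VTA per the authors' deposited table. Its log2 ratios of recovered means were -3.37 and -4.81, in the opposite order. The part of shrinkage in the differences between projections was not tested.

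Another 133 genes of the pathway were followed as listed groups. Of these 46 were lower and 16 higher in PL-NAc, 26 and 18 in PL-BLA, and 10 and 9 in PL-VTA per the authors' deposited table, of 114, 108 and 96 with an adjusted p. The shares over all genes were 21.7% and 21.4%, 20.2% and 20.8%, and 10.5% and 11.0%, so the PL-BLA and PL-VTA counts lie near the background. With fold changes centred on the excitatory neuron markers, 96 were lower and 0 higher in PL-NAc, 87 and 0 in PL-BLA, and 18 and 3 in PL-VTA, so the split between higher and lower depends on the scaling. That centring made 67.8%, 71.9% and 14.9% of all genes lower and 2.37%, 1.84% and 5.63% higher in PL-NAc, PL-BLA and PL-VTA. Of the 8 interferon ligands 7, 8 and 8 were listed at 0 in PL-NAc, PL-BLA and PL-VTA, and none had an adjusted p. Receptors and JAK-STAT genes were mixed, with 5 of 14 lower and 2 higher in PL-NAc, 2 and 2 in PL-BLA and 0 and 2 in PL-VTA per the authors' deposited table. Jak1, a kinase of the receptor, was higher at 0.34 (SE 0.07), 0.66 (SE 0.09) and 0.40 (SE 0.14), Stat3 lower at -0.57 (SE 0.10) and -0.34 (SE 0.11) in PL-NAc and PL-BLA, and the phosphatase gene Ptpn6 lower at -1.38 (SE 0.28) and -0.94 (SE 0.28) per the authors' deposited table.

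Of 13 other IRF and MHC regulators, 5, 2 and 1 were lower and 3, 3 and 1 higher per the authors' deposited table. Irf5, a factor of myeloid cells, fell by 2.68 (SE 0.30), 2.04 (SE 0.30) and 1.77 (SE 0.40), and Irf8, which microglia need, by 1.63 (SE 0.26) and 1.67 (SE 0.25) in PL-NAc and PL-BLA per the authors' deposited table. Irf2bp1, a corepressor, was higher at 0.53 (SE 0.07), 0.42 (SE 0.08) and 0.41 (SE 0.15) per the authors' deposited table. Of 20 other nucleic acid sensing genes, 10, 7 and 2 were lower and 1 higher in each per the authors' deposited table. Traf3, an adaptor of the sensors, fell by 0.92 (SE 0.14), 0.70 (SE 0.15) and 0.64 (SE 0.25), Tank by 0.37 (SE 0.11) and 0.59 (SE 0.11) in PL-NAc and PL-BLA, and the RNA editing enzyme gene Adar was higher at 0.42 (SE 0.07), 0.45 (SE 0.08) and 0.41 (SE 0.15) per the authors' deposited table.

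The other 14 MHC class I pathway genes did not share the fall, with 2, 1 and 0 lower and 3, 5 and 2 higher in the same order per the authors' deposited table. Psme1, an activator of the proteasome, was higher at 0.78 (SE 0.10), 0.62 (SE 0.11) and 0.70 (SE 0.18), and the chaperone gene Calr at 0.30 (SE 0.06), 0.48 (SE 0.07) and 0.49 (SE 0.14) per the authors' deposited table. Pdia3, which works with Calr in peptide loading, was higher in PL-BLA at 0.35 (SE 0.08) per the authors' deposited table. Of 8 MHC class II pathway genes, 5, 4 and 3 were lower and 1 higher in each per the authors' deposited table. Cd74, the invariant chain, fell by 1.37 (SE 0.22), 1.28 (SE 0.24) and 1.25 (SE 0.36), and the protease gene Ctss, which is also on the microglial list, by 2.34 (SE 0.19), 1.55 (SE 0.18) and 1.47 (SE 0.28) per the authors' deposited table. H2-DMa was the one higher, at 0.78 (SE 0.14), 0.76 (SE 0.13) and 0.78 (SE 0.22) per the authors' deposited table.

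Of 53 other interferon-stimulated genes, 19, 10 and 4 were lower and 3, 3 and 0 higher, and 46, 42 and 34 had an adjusted p per the authors' deposited table. Their medians were -0.73, -0.54 and -0.22 per the authors' deposited table. Parp12 was lower at -1.54 (SE 0.25) in PL-NAc and -1.11 (SE 0.38) in PL-VTA per the authors' deposited table. Rtp4 was lower at -1.89 (SE 0.36) and -1.14 (SE 0.34) in PL-NAc and PL-BLA per the authors' deposited table, and in PL-VTA had 8.13 and 131 in IP beside 60.5 and 87.4 in Input, the same split as Isg15. Ly6e, a membrane protein gene that neurons also express, was higher at 0.48 (SE 0.07) and 0.72 (SE 0.08) in PL-NAc and PL-BLA and at -0.25 (SE 0.14, adjusted p 0.207) in PL-VTA per the authors' deposited table. Among the 25 of these genes in the range, 3 were at least 4-fold higher in PL-VTA IP library b than in a.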

How the data were processed

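Polysome-bound and total RNA of the prelimbic cortex were sequenced in 16 libraries. The kits were SMARTer Ultra Low and Nextera XT, per the labels' protocols. Per the submitters' processing notes, STAR 2.3, featureCounts and DESeq2 were used, with builds mm10 and GRCm38. Other versions and the annotation are not given in the sources used. The data are the authors' deposited comparison tables. The mean normalized count is the authors' signal per gene over all libraries of a projection, per the file headers. Each log2 fold change with its standard error is the authors' deposited value; it appears shrunken toward 0, and its direction was read as IP over Input because glial and mitochondrial transcripts were negative. The Wald statistic is a deposited score, and the p-values and adjusted p-values are those deposited by the authors.

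Whole reads per library were recovered from the 15 deposited digits of the mean, a step chosen after the files were seen. A gene with 1 read in 1 library gives that library's unit, and the sign of its fold change gives the arm; other means were solved as sums of whole numbers of units, with a tolerance of 0.75 of the last digit, and kept where 1 solution existed. This resolved 99.6% (PL-NAc) and 96.3% (PL-BLA) of genes with means from 2 to 100, and 99.9% (PL-VTA) with means from 2 to 1000. The sign of IP over Input was that of the deposited value in all 2085, 1628 and 2743 resolved genes with an absolute Wald statistic over 2. Recovered reads were compared with limma 3.58.1 (R 4.3.3) on log2(normalized count + 1), for genes with a mean of at least 5, since a count model was not used on them. Recovery and tests were tested on simulated data. Intervals of ratios are exact and cover counting error only, and the floor for 0 reads is 3 reads. Mean counts summed to between 15437849 and 16520414 per projection, and the median SE was 0.124 (PL-NAc), 0.129 (PL-BLA) and 0.219 (PL-VTA) where the mean was 50 or more.

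Values are given for every gene of the set called in a projection or differing between 2, and for up to 3 genes of each pathway list with the smallest adjusted p. Of the endothelial, microglial and other immune marker lists, values are given for up to 2 genes with the largest mean. The other marker lists are given as counts or sums only. The genes and lists were chosen with earlier results of these data known. Alternatives were a stricter threshold, other adjustment, a minimum mean of 50, a 2-fold minimum and 2 centrings. Gbp5 and Gbp6 were looked for by symbol and not found.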

Additional observations from a re-analysis of the deposited data

Results flagged for a closer look

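The IP to Input difference of H2-D1 passed the test between PL-NAc and PL-BLA on the authors' scaling. Its log2 fold changes were -0.91 (SE 0.10) and -0.34 (SE 0.12) per the authors' deposited table, a difference of -0.57 (95% interval -0.88 to -0.26, adjusted p 0.0272 by the Wald test). The call was lost with fold changes centred on the excitatory neuron markers (adjusted p 0.0525 by the Wald test) and at an adjusted p under 0.01. Ifi27 differed between PL-BLA and PL-VTA, at -0.56 (SE 0.13) and 0.52 (SE 0.19) per the authors' deposited table, a difference of -1.08 (SE 0.23). Groups of 2 or 3 libraries are too small for a test of single outlying libraries.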

How the results depend on the processing

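The thresholds, minimums and adjustment left the fold changes as deposited, so they could not reverse the direction of a called gene. The 2 centrings lowered all fold changes, so only Ifi27 in PL-VTA, the gene called higher, could have reversed, and it did not. Called genes of the set numbered 19 (PL-NAc), 18 (PL-BLA) and 7 (PL-VTA); with at least 2-fold they numbered 12, 10 and 4, and with a mean of at least 50 they numbered 11 of 16 in PL-NAc and 10 of 14 in PL-BLA, where fewer genes were tested. An adjusted p under 0.01 left 11 in PL-BLA. Shares of all genes are not given for the 2-fold, minimum-mean and 0.01 settings, so these counts have no background beside them. Centring on excitatory neuron markers shifted all fold changes by 0.62, 0.65 and 0.16 in PL-NAc, PL-BLA and PL-VTA, and called 34, 32 and 8 of the set, all lower; of the 133 pathway genes it called 96 in PL-NAc and 87 in PL-BLA, where 67.8% and 71.9% of all genes became lower (14.9% in PL-VTA). With the same centring 0 genes of the set differed between PL-NAc and PL-BLA, 11 between PL-NAc and PL-VTA and 4 between PL-BLA and PL-VTA (1.16%, 18.2% and 20.8% of all genes), and an adjusted p under 0.01 left 0 between PL-NAc and PL-BLA; in both cases H2-D1 lost its call. Adjusting over every gene with a p-value ended 3 of the 44 calls, those of Tap2 in PL-NAc, B2m in PL-BLA and Ifi27 in PL-VTA, and the 0.01 threshold ended 12.

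Libraries were left out on the recovered reads, chosen after seeing the data. Leave-one-out counts by limma ran from 13 to 18 of 20 (PL-NAc), from 9 to 11 of 20 (PL-BLA) and from 1 to 27 of 34 (PL-VTA). Of all genes, the same runs called from 2141 to 2467 of 5480 in PL-NAc and from 1572 to 1962 of 5226 in PL-BLA, in either direction. The PL-VTA runs left 1 library in an arm, and their shares of all genes are given in the Results. The median log2 change in PL-VTA was -0.69. It was 0.12 without IP library a and -1.57 without IP library b. No paired analysis was possible because the deposited tables and the recovered libraries carry no replicate numbers. Of the set 12 abundant genes in PL-NAc and PL-BLA and 1, B2m, in PL-VTA have no values per library. Genes with a few reads per library, such as Mx1, Oas1a and Cxcl10, could show only large differences.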
